A study of Mus musculus with 4 samples.

Results

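Mouse embryonic stem (ES) cells of the line B6R(5), a male C57BL/6 line, were treated with PD173074, an inhibitor of fibroblast growth factor receptors (FGFR), and compared with cells that received the solvent DMSO alone. This comparison uses 2 of the 4 arrays of the series, chosen by their labels as FGFR and control at 48 hr. The comparison asks which genes respond when FGF receptors are blocked. The remaining arrays, of cells given an inhibitor of MEK (PD98059) or of GSK-3 (BIO), are cited only beside the genes described. The methods give 100 μM as the concentration of PD173074, while a supplementary list of the data sets prints that number in mM. Cells grew on gelatin without feeders, the inhibitor was added 24 hr after plating, and RNA was taken 48 hr later. DMSO was present at 0.2% in both cultures.

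Each condition has 1 culture and 1 array, so no spread between replicates could be measured, no test was made, and effects of array, culture and treatment cannot be told apart. RNA of ES cells was labeled with Cy3. The Cy5 channel held the same reference on every array, which the labels call a pool of RNA from mouse cell lines. For the tissue arrays of the study the methods name a mixture of a reference pool with RNA of MC1 cells, and for the inhibitor samples they refer back to the earlier description. Values below are log2 ratios of Cy3 to Cy5 after background correction and loess within the array, and a log2 fold change is the value with FGFR inhibitor minus the value with DMSO. A gene is a probe of the authors' processed table of 25030 probes, 1 per gene. It counts as measured if the scanner software flagged its Cy3 signal as well above background on each of both arrays, which held for 16797 genes, of which 3 were left out for a flagged spot. The robust SD given beside a gene is the spread of log2 fold changes among genes of similar Cy3 signal, and includes real changes along with error.

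Fibroblast growth factors bind receptor tyrosine kinases at the cell surface, and the signal passes through the adaptor Grb2, Ras and a kinase cascade with MEK to ERK, which changes the activity of transcription factors. ES cells produce Fgf4 themselves. In these cells the pathway is known for preparing exit from the naive pluripotent state, and inhibitors of FGF receptors, MEK and GSK-3 are used to hold cells in that state. PD173074 occupies the ATP site of the receptors. At high concentrations, kinase inhibitors of this kind can also reach other kinases.

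Symbols could be given to 5619 probes, or 22.4% of the table, from the rows held here of the study's supplementary tables. Of the 16794 genes measured, 4357 carry a symbol. The rows held are not a random sample, since they include the least responsive genes of the study's own ranking, genes of chromosome 1, names early in the alphabet and many RIKEN transcripts. Current symbols of RefSeq are used below, with the symbol of the tables in parentheses where it differs. Every gene with a symbol was measured by 1 probe, printed once on each array, so each value rests on 1 spot per array. The sequences of 4 probes are shown, for the transporters Abcb4 and Slco4c1 and the gene Soga3 (6330407J23Rik), which changed at least 2-fold, and for the pluripotency regulator Prdm14. They are given 5′ to 3′ as on the array, all in lower case because no part of them is singled out. The files mark probes as unmapped, so no position in the genome is given.
Abcb4: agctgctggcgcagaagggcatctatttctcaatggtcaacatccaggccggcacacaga
Slco4c1: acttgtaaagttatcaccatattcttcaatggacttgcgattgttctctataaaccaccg
Soga3: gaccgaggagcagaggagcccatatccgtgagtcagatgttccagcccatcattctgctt
Prdm14: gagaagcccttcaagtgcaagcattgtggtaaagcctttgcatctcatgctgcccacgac

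With the FGFR inhibitor, 134 genes were at least 2-fold higher and 100 at least 2-fold lower, together 1.39% of the genes measured. In processed signals the numbers were 349 and 375, so that both the total and the more frequent direction depended on the processing. By direction in the loess ratio, the shares were 0.798% higher and 0.595% lower. The median log2 fold change of all measured genes was -0.019 and their robust SD was 0.20. Among genes with a symbol 21 were higher (0.482%) and 4 lower (0.0918%), or 0.574% in all, against 1.68% of the 12437 genes without a symbol. The named genes therefore show a small and uneven part of the difference, and their share of higher calls, 84.0%, is not that of all genes, 57.3% in the loess ratio and 48.2% in processed signals. At 4-fold, 11 genes were higher and 4 lower, among them Cfc1 and Rxrg.

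**Figure D1:**
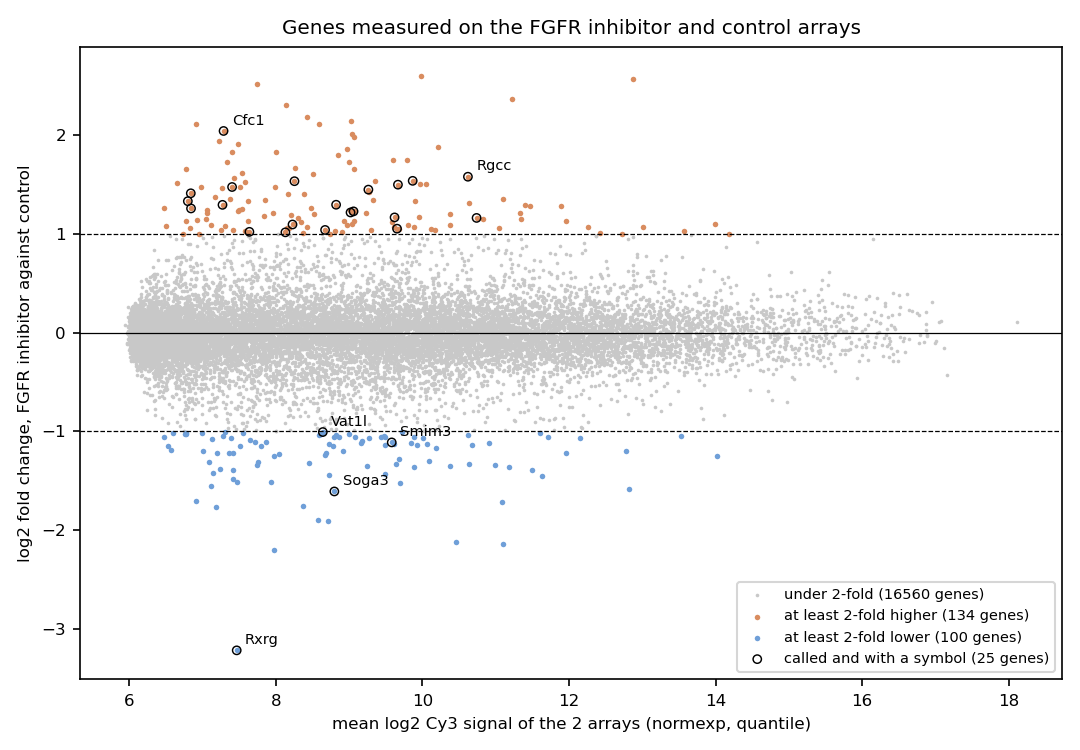
Log2 fold change (FGFR inhibitor against control, vertical axis) against the mean log2 Cy3 signal of both arrays (horizontal axis) for 16794 genes, with dashed lines at 2-fold. Circles mark the 25 called genes with a symbol. Rxrg lies at the bottom, alone below -3, and called genes occur from dim to bright signal.

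The 4 named genes that fell have unlike roles. Rxrg encodes retinoid X receptor gamma, a nuclear receptor that pairs with retinoic acid and other receptors on DNA. Its log2 ratio to the reference was 3.34 on the control array and 0.12 on the FGFR inhibitor array, and its processed Cy3 signal went from 1502 to 49.3. The offset added in background correction draws the second ratio, of 2 dim signals, toward 0. The log2 fold change of -3.22, or 9.29-fold, was the lowest of all 16794 genes, beside a robust SD of 0.25. Its size depended on the processing, with -4.64 in processed signals and -2.71 in Cy3 alone. Processed Cy5 signal at this spot was 25.8 and 21.0, so that Cy3 exceeded Cy5 on both arrays.

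Soga3 (6330407J23Rik), a gene of the SOGA family, had a log2 ratio of 3.11 on the control array and 1.501 with the inhibitor, a fall of 3.05-fold. It remained above the reference on both arrays. Smim3 (2010002N04Rik), which encodes a small membrane protein, went from -0.09 to -1.21, and its processed Cy3 signal from 3580 to 1653. Vat1l (AI427515), related to the vesicle amine transport protein 1, went from -1.63 to -2.63 and lies just inside the threshold with a log2 fold change of -1.01. Robust SDs for these genes were 0.23 to 0.24.

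The 21 named genes that rose include several of the cell surface. Cfc1 encodes Cryptic, an EGF-CFC coreceptor for Nodal and related ligands that is known for its role in left-right asymmetry. Its log2 ratio was 0.65 on the control array and 2.69 with the inhibitor, a rise of 4.12-fold beside a robust SD of 0.25. Processed Cy3 signal was 73.7 and 942. Processed Cy5 signal at that spot moved too, from 3.79, not well above background, to 26.3, and its part in the result was not tested. The ratio of processed signals gave a log2 fold change of 0.88 and Cy3 alone 1.82.

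Ackr3 (Cxcr7), an atypical receptor that binds the chemokine CXCL12, had log2 ratios of -3.95 and -2.45 on the control and inhibitor arrays. It rose 2.82-fold but stayed far below the reference on both. Dner, a transmembrane protein with EGF repeats like those of Delta and Notch, went from -0.05 to 1.36, so that it was level with the reference with DMSO and above it with the inhibitor. Epha4, a receptor tyrosine kinase for ephrins, went from 0.86 to 1.91, with processed Cy3 signals of 1690 and 4061. Plet1 (1600029D21Rik), a surface protein of placenta and epithelial progenitors, went from 1.88 to 3.11. For the last 3 genes the rises were 2.66-fold, 2.07-fold and 2.34-fold.

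Enzymes and transporters form the next set. Acss1, the mitochondrial enzyme that makes acetyl-CoA from acetate, had log2 ratios of -2.99 and -1.46, a rise of 2.90-fold, with processed Cy3 signals of 1670 and 5231 and Cy5 signals of 13262 and 13094. Its reference signal was thus nearly equal on both arrays. Gpat3 (Agpat9), a glycerol-3-phosphate acyltransferase at the start of triacylglycerol synthesis, went from -1.53 to -0.05, or 2.78-fold. Abcb4, which moves phosphatidylcholine across the membrane of bile canaliculi, went from -1.97 to -0.81, or 2.24-fold. Slco4c1, an organic anion transporter known from the kidney, went from 0.67 to 1.93, or 2.39-fold, with processed Cy3 signals of 108 and 377. Cy5 of Slco4c1 was not well above background on either array.

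Rgcc (1190002H23Rik), a regulator of the cell cycle that is also a response gene to complement, had log2 ratios of -1.01 and 0.57, the largest rise among named genes after Cfc1 in this processing, at 2.99-fold. It passed from below to above the reference. Urgcp (2010005J08Rik), named as an upregulator of cell proliferation, went from -1.47 to -0.02, or 2.73-fold. Spats2l (2810022L02Rik), found in stress granules, went from 0.78 to 2.08, or 2.45-fold. Eya1, a transcription coactivator and phosphatase of organ formation, went from -2.10 to -1.08, or 2.03-fold, just inside the threshold.

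Of RNAs with no or little known protein role, Tunar (2810011L19Rik), a long noncoding RNA of ES cells and the nervous system, had log2 ratios of 1.05 and 2.34. Srrm4os (2410137F16Rik), a transcript on the opposite strand of Srrm4, had 2.46 and 3.68. The RIKEN transcripts 2310043M15Rik, 2300002M23Rik and 2410137M14Rik had log2 fold changes of 1.53, 1.33 and 1.02. For 2310043M15Rik processed Cy5 signal was higher as well, 70.7 against 25.4, and its part in the result was not tested. The remaining higher genes, outside that group, were AA467197, Fam81a (6430514L14Rik) and Cabs1 (4931407G18Rik), a spermatid calcium-binding protein, with 1.16, 1.09 and 1.04. AA467197 lay above the reference on both arrays, at log2 ratios of 2.88 and 4.04.

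**Figure D2:**
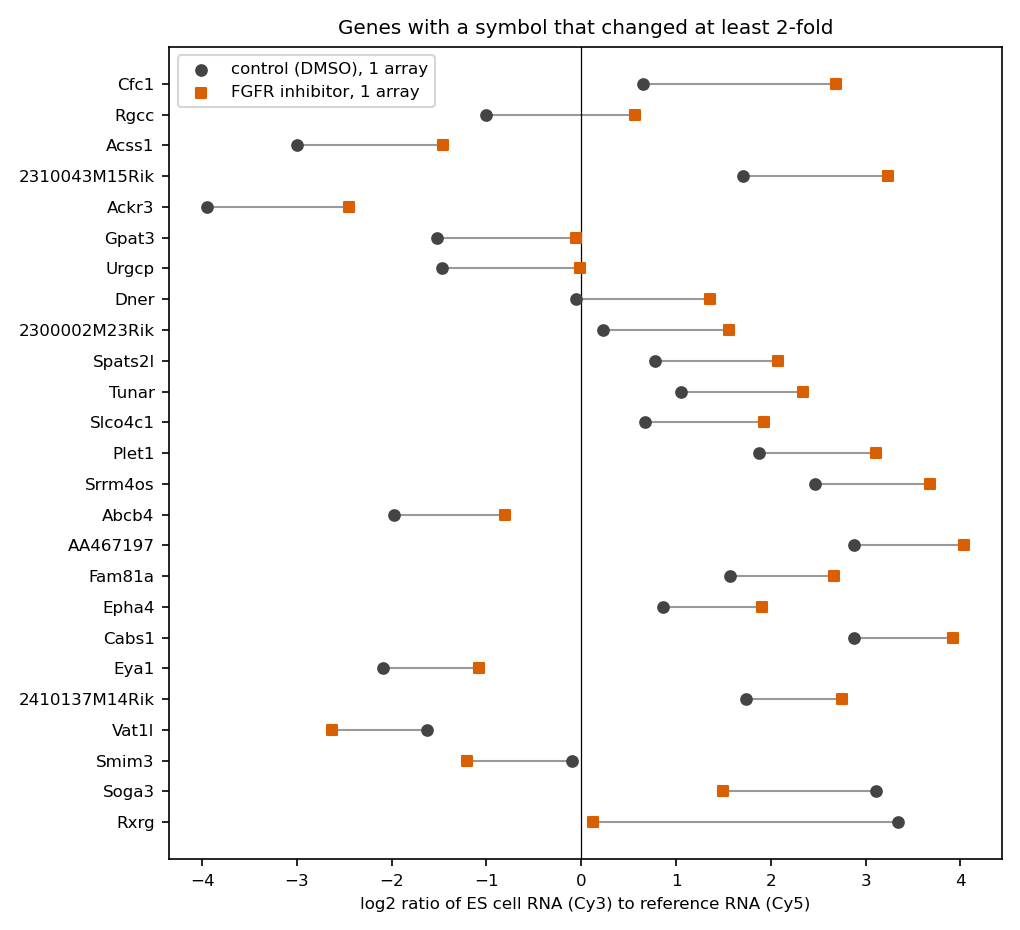
Log2 ratio of ES cell RNA to reference RNA (horizontal axis) on the control array (circles) and the FGFR inhibitor array (squares), 1 array each, for the 25 named genes changed at least 2-fold. Of the 21 that rose, 13 lay above the reference on the control array and 15 with the inhibitor, and Rxrg made the longest step.

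All 25 named genes kept their direction in the processed ratio and in Cy3 by itself, and 17 of them were at least 2-fold in all 3 processings. The 8 that were not are higher genes. Besides Cfc1 they are 2310043M15Rik (0.76 in processed signals), Srrm4os (0.74), 2410137M14Rik (0.80) and Tunar (0.92, and 0.96 in Cy3 alone). Cabs1 had 0.40 in processed signals and 0.96 in Cy3 alone, Fam81a had 0.99 and Slco4c1 0.86 in Cy3 alone. Cy5 was not well above background on at least 1 array for 4 of the 25, which are Cfc1, Tunar, Cabs1 and Slco4c1. Processed signals carry no offset and gave larger values for some dim genes, with 2.47 for Gpat3, 2.56 for Dner and 2.30 for 2300002M23Rik.

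**Figure D3:**
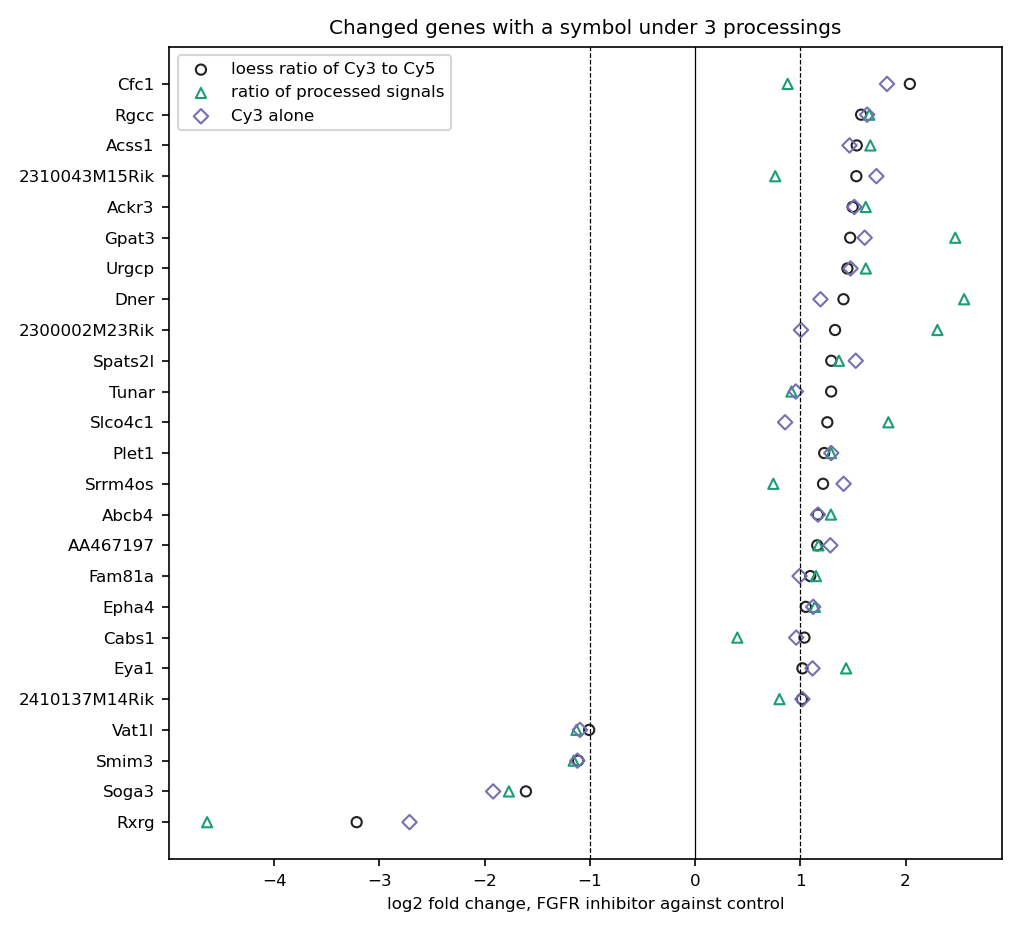
Log2 fold change (FGFR inhibitor against control) of the 25 named genes from the loess ratio (circles), the ratio of processed signals (triangles) and Cy3 alone (diamonds), with dashed lines at 2-fold. Every gene lies on the same side of 0 in all 3 processings, and the processed signals depart most, from -4.64 for Rxrg to 2.56 for Dner.

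Under the threshold, 51 further named genes lay between 1.5-fold and 2-fold higher and 50 between 1.5-fold and 2-fold lower. Those of a log2 size of at least 0.8 were chosen after their values were seen. On the lower side these are 10 genes, and all 10 kept the sign in processed signals and in Cy3 alone. Gbx2 is described with the pluripotency regulators and Inhbb with the Nodal pathway. Per2, a core gene of the circadian clock, had -0.97, with log2 ratios of -3.53 and -4.49. Bok, a member of the BCL2 family that promotes apoptosis, had -0.89, and Adora2b, an adenosine receptor, had -0.83. The others were Upk3bl (2310043J07Rik) with -0.94, Lrrfip1 and 9930014A18Rik with -0.87 each, Rgs2 with -0.85 and the kinase gene Aatk with -0.81. In the processed signals, 6 of the 10 exceeded 2-fold, up to -1.91 for Upk3bl.

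On the higher side there are 14 such genes, and 13 of them kept the sign in processed signals, the exception being Lrriq4 (4930558O21Rik) with 0.87 in the loess ratio and -0.03 in processed signals. In processed signals 6 of the 14 were above 2-fold, among them Aox3 with 2.40. Ncmap (A330049M08Rik), a myelin protein gene, and Aox3, an aldehyde oxidase, had 0.98 each in the loess ratio. Plbd1 (1100001H23Rik) had 0.96, Aff1, a subunit gene of elongation complexes, 0.95, and Ahnak, a giant scaffold protein, 0.90. Inpp5d, the phosphatase SHIP1, which removes a phosphate from PIP3, had 0.85, and Ticrr (5730590G19Rik), needed to start DNA replication, had 0.84. Of the others, Tdrp (2610019F03Rik), Aopep (2010111I01Rik), 6030455H03Rik, Dusp27 and Clmp (9030425E11Rik) had 0.94, 0.86, 0.85, 0.82 and 0.82.

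The FGF and ERK pathway could be read from few members. Of 29 genes in a list of its components, 8 carry a symbol here and were measured, and none changed at least 2-fold. Since 0.574% of all named genes and 1.39% of all genes measured did, a count of 0 among so few says nothing about the pathway. The list's median log2 fold change was -0.034, beside -0.019 for all measured genes. The kinase Mapkapk2, which acts downstream of stress-activated kinases, had -0.06. Gab1, an adaptor of receptor kinases, had -0.01, the transcription factor Elk4 had -0.14 and the ligand Fgf6 had 0.11. Lamtor3 (Map2k1ip1), a scaffold for MEK1 and ERK1 on endosomes, was lowest with -0.63, with log2 ratios of -0.71 and -1.34. Its partner Lamtor2 (Mapbpip) was highest with 0.16.

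For feedback and immediate early genes of ERK, 5 of 26 list members were measured and none was called, beside 0.574% of all named genes. Their median was -0.097. Rgs2, which ends signaling of G protein-coupled receptors, had -0.85, with log2 ratios of -5.32 and -6.17 and processed Cy3 signals of 427 and 209. It lay far below the reference on both arrays. Btg2, an antiproliferative early gene, had -0.27, Rgs16 -0.10, Ptgs2 0.04 and Ier5 0.09. Sprouty genes, Dusp6 and Etv4 or Etv5, usual readouts of FGF signaling in ES cells, have no symbol in the rows held and were not analysed here. The action of the inhibitor on its own pathway was therefore not checked through them.

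Among pluripotency regulators, 5 of 21 were measured and none was called, beside 0.574% of all named genes. Their median was 0.42, with 3 above 0 and 2 below. Tfcp2l1 (Tcfcp2l1), a transcription factor of the naive state, had log2 ratios of 2.97 and 3.39 and processed Cy3 signals of 26661 and 46345. Prdm14, a zinc finger repressor of differentiation genes, had 2.20 and 2.80, with Cy3 signals of 1530 and 2816. Nr5a2, a nuclear receptor that can act on Pou5f1, had 1.92 and 2.52, with Cy5 not well above background on either array. Log2 fold changes of these 3 were 0.42, 0.60 and 0.60, and in Cy3 alone they were 0.76, 0.77 and 0.36. Zfp281, a zinc finger regulator of the exit from pluripotency, had -0.08.

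Gbx2, a homeobox factor of the naive state, was the lowest of the list. Its log2 ratio was 4.01 on the control array and 3.03 with the inhibitor, just outside the threshold with -0.98. Processed Cy3 signal was 8670 and 1806, while Cy5 at the same spot was 350 and 83.3. Gbx2 therefore had -2.34 in Cy3 alone but -0.19 in the ratio of processed signals, and the part of the Cy5 signal in this was not tested. It lay below 0 under every setting tried.

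In the list of Nodal, activin and BMP signaling, 13 of 27 genes were measured, and 1 was called, Cfc1, beside 0.574% of all named genes. The median was -0.029. Of ligands, Inhbb, the beta B subunit of activin, had -0.86, with log2 ratios of 2.68 and 1.82 and processed Cy3 signals of 4464 and 2354, and Inha and Gdf2 had -0.10 and 0.15. Receptors stayed between -0.10 for Bmpr2 and 0.21 for Acvr1, with -0.08 for Acvrl1, -0.03 for Acvr2b, 0.15 for Acvr1b and 0.18 for Acvr2a. Foxh1, the DNA-binding partner of Smads, had -0.08. The binding proteins Ltbp3 and Tgfbrap1 had -0.31 and 0.18.

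Over all 31 lists, 715 genes were measured, of which 5 were called higher and 1 lower. That is 0.839%, between the 0.574% of all named genes and the 1.39% of all genes measured, so the counts single out no list, and a list of this size without a called gene is not a result about it. There were 25 such lists. List medians, among the 23 lists with at least 10 measured genes, lay between -0.18 and 0.11. Of 14 lineage transcription factors measured, Eya1 was called, and the lowest was Hes6, a neural HES factor, with -0.63. Nuclear receptors and retinoid enzymes (6 measured) held Rxrg as the lowest and Nr5a2 as the highest. The Wnt pathway (12 measured, none called) ran from -0.26 for Dvl1 to 0.25 for Apc.

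In acyl-CoA and acetyl-CoA metabolism, 1 of 48 genes was called, Acss1, where 0.574% of all named genes were, and Acsl4, a ligase for arachidonate, was lowest with -0.62. The median was -0.0051. Acss2, the cytosolic relative of Acss1, had 0.11. The TCA cycle (14 measured) ran from -0.54 for Dlst to 0.45 for Idh1, and oxidative phosphorylation (61 measured, median 0.051) from -0.39 for Cyc1 to 0.43 for Ndufb2.

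Of 28 ABC transporters, 1 was called, Abcb4, and of 27 solute carriers 1, Slco4c1, beside 0.574% of all named genes, and lists of this size say little by such a count. The close relatives of Abcb4, Abcb1a and Abcb1b, drug exporters of the P-glycoprotein type, had 0.74 and 0.63 in the loess ratio and 1.74 and 1.28 in processed signals. The Cy5 signal of Abcb1a was not well above background on either array. Cross-hybridization between these genes was not tested. The lowest was Abcc4, an exporter of cyclic nucleotides, with -0.49. Among the solute carriers Slc25a37, a mitochondrial iron importer, was lowest with -0.46. In xenobiotic response (15 measured, none called) the median was 0.11 in the loess ratio and 0.029 in Cy3 alone, with Aox3 at the top of the list.

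Among lists of cell structure and signaling, the actin cytoskeleton (40 measured) was lowest at Actn3, with -0.37, and Ahnak lay near its top. Extracellular matrix and its proteases (38 measured) ran from -0.69 for Adam23 to 0.47 for Adam32. Receptors and cyclases of cAMP (14 measured, median -0.14) ran from Adora2b to Adcy5 with 0.39, and the 4 RGS proteins ran from -0.85 for Rgs2 to -0.10 for Rgs16, which had 0.042 in Cy3 alone. The p53 and apoptosis list (20 measured, median -0.11) ran from Bok to Mdm4, an inhibitor of p53, with 0.48.

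Lists of basic cell functions held no called gene in the loess ratio, where 0.574% of all named genes were called, so their ranges say more than this count. They include the cell cycle (61 measured, from -0.35 for Anapc1 to 0.68 for Sgo2a, listed as Sgol2), DNA replication and repair (50, from -0.34 for Fance to 0.44 for Gins3) and chromatin regulators (49, from -0.34 for Dot1l to 0.38 for Hdac1). Cytosolic ribosomal proteins (27 measured) ran from -0.28 for Rpl41 to 0.22 for Rps7, mitochondrial ones (35, median -0.12) from -0.29 for Mrps9 to 0.28 for Mrpl49, and translation initiation factors (22) from -0.28 for Eif5 to 0.39 for Eif4e2. Splicing factors (39) ran from -0.29 for Hnrnpll to 0.28 for Hnrnpdl, proteasome subunits (27) from -0.25 for Psma3 to 0.19 for Psma6, and chaperones (27) from -0.47 for Dnajb3 to 0.22 for Dnajc7. For Dnajb3, which was too dim in Cy5 to be flagged well above background on either array, the value was -1.82 in processed signals, past 2-fold. The lowest median of the larger lists, -0.18, was that of amino acid response and tRNA synthetases (16 measured), in which Dars was highest with 0.12. Housekeeping genes (9 measured) lay between -0.15 for Ppia and 0.13 for Tubb5.

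**Figure D4:**
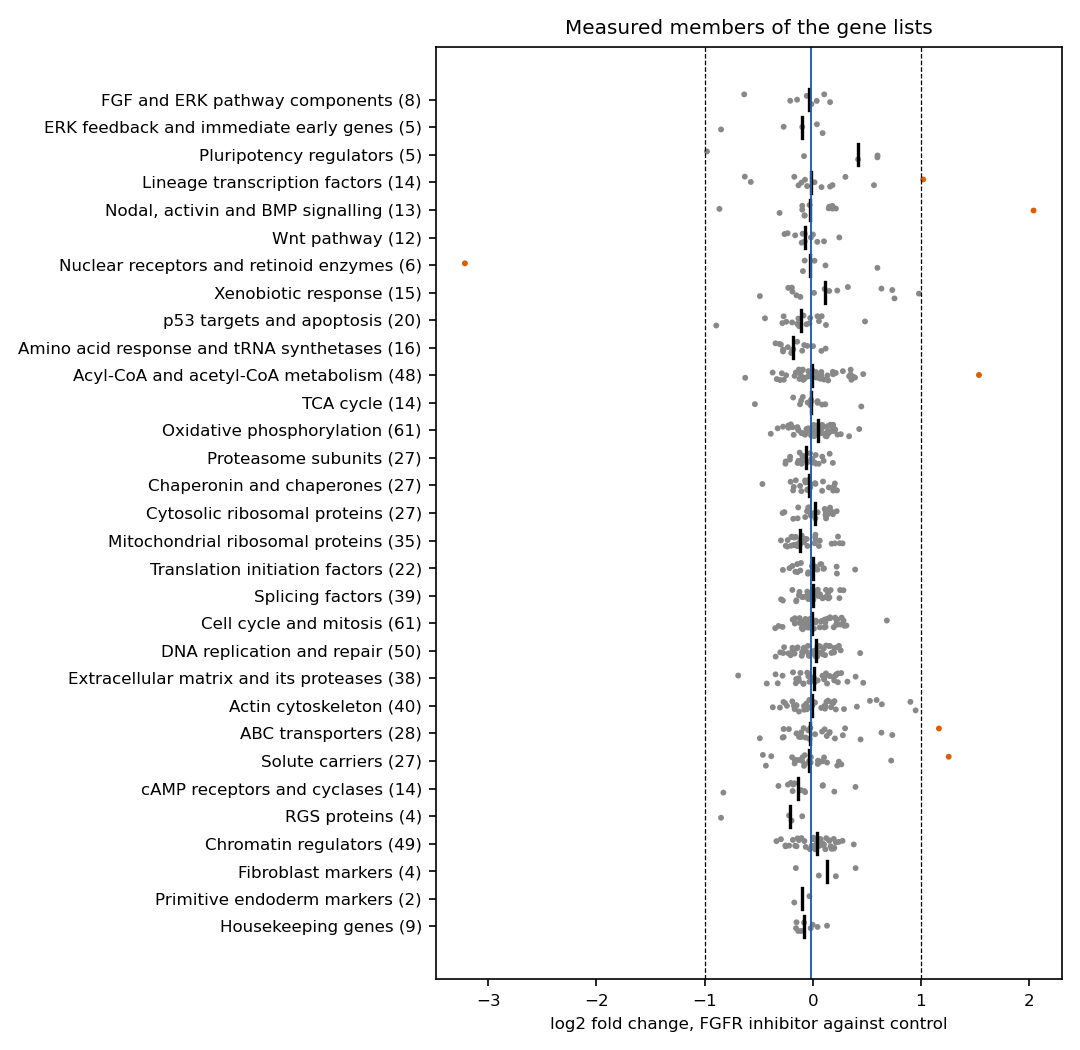
Log2 fold change (FGFR inhibitor against control) of the measured members of each list, with the number measured in parentheses, black bars at list medians, a blue line at the median of all genes (-0.019) and dashed lines at 2-fold. Points past 2-fold are orange. They are 6 genes in 6 lists.

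The labelled cell type was checked through the markers that carry a symbol, 5 of 10 for ES cells. Tfcp2l1, Prdm14, Nr5a2 and Gbx2 lay above the reference on both arrays, at log2 ratios from 1.92 to 4.01 on the control array. Foxh1, the remaining ES cell marker measured, was level with it, at -0.14 and -0.21. Of 12 fibroblast markers 8 carry a symbol and 4 were measured on both arrays. Col3a1, Col6a3 and Ddr2 lay far below the reference, at -7.19, -6.90 and -5.58 on the control array and -7.34, -6.69 and -5.52 with the inhibitor, and Fn1 was at -1.72 and -1.33. Col5a2 and Dpt were not well above background on either array, and Prrx1 and Twist2 on 1 of them. Primitive endoderm was represented by Sox17, at 2.10 and 1.93, and Lamc1, at 2.33 and 2.30, of 12 markers. In bulk RNA, fewer cells of a type and less RNA per cell cannot be told apart.

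The arrays with the other inhibitors share the control array with this comparison, so only the values are set side by side. For Rxrg the log2 fold changes were -3.22 with FGFR, -1.26 with MEK and -2.13 with GSK inhibitor. Gpat3 had 1.47, -0.09 and 0.03 in that order, Dner 1.41, 0.39 and 0.32, and Tunar 1.29, 0.44 and -0.08. Gpat3, Dner and Tunar stayed under 2-fold on the MEK and GSK inhibitor arrays. Ackr3 had 1.498, 0.29 and 1.25, and so passed it with the GSK inhibitor as well. Epha4 had 1.05, 0.32 and 0.82, Abcb4 1.17, 0.16 and 0.81, and Eya1 1.02, 0.24 and 0.75. The transcript 2310043M15Rik had 1.53, 1.16 and 0.997, and was the only one of the 21 higher genes past 2-fold with the MEK inhibitor. Plet1 had 1.23, 0.97 and 0.64. Soga3 had -1.61, -0.33 and -1.08, past 2-fold also with the GSK inhibitor. Vat1l had -1.01, -0.02 and -0.30. Differences between inhibitors were not tested, since each has 1 array.

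**Figure D5:**
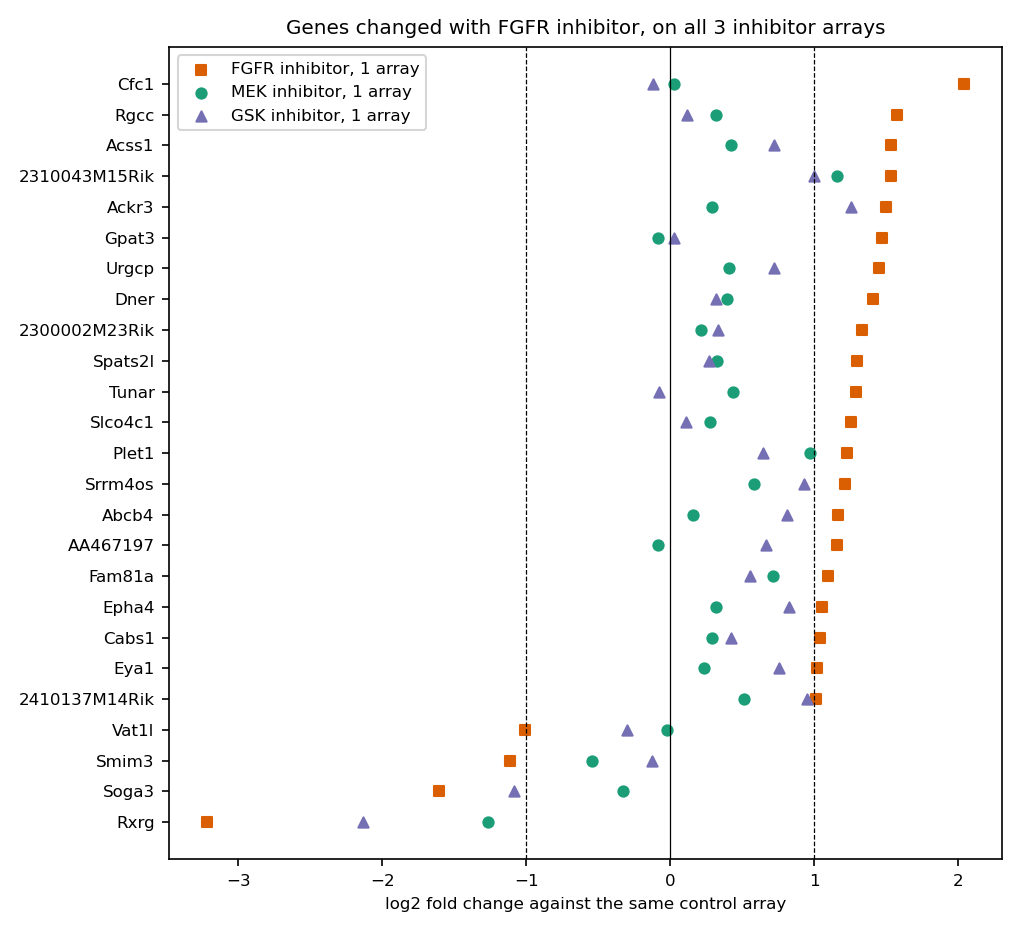
Log2 fold change against the shared control array for the 25 named genes chosen because they changed with the FGFR inhibitor (squares), with values on the MEK inhibitor (circles) and GSK inhibitor (triangles) arrays, 1 array each. For the 21 higher genes the values ran from -0.09 to 1.16 with the MEK inhibitor and from -0.12 to 1.25 with the GSK inhibitor.

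Of the 234 called genes, 209 have no symbol here. The largest rises among them were 2.60 for probe Z00026671-1 and 2.57 for Z00034851-1, whose processed Cy3 signal was 7601 and 89662. At the latter, processed Cy5 was 72.4 and 276, and the log2 fold change was 1.63 in processed signals but 3.52 from Cy3 alone. Falls were largest, at -2.20 and -2.14, for Z00074836-1 and Z00056888-1. All 4 kept their direction in processed signals and in Cy3 alone. Outside the genes measured, 1144 were well above background on 1 of the arrays only, 610 of them with the inhibitor and 534 with DMSO. Of these, 210 carry a symbol, and none reached a bound of 2-fold, computed per channel after loess and Aquantile. The offset added in background correction draws these bounds down for dim genes. The absence of a 2-fold bound therefore says little about genes near background. The largest bound was that of Vrtn (7420416P09Rik), a gene for the number of vertebrae, at least 1.79-fold lower with the inhibitor, with processed Cy3 signals of 173 and 21.9.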

How the data were processed

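ES cell RNA (Cy3) and reference RNA (Cy5) were measured on 4 arrays of 1 slide, 1 for each condition, with no exchange of dyes. The authors deposited Agilent Feature Extraction output, with mean intensity and median local background for each spot and a processed intensity corrected for background and dye. Processed log10 values of 25030 probes were deposited by the authors as well, made with NIA Array Analysis, whose settings are not given in the sources used here. From the values, that table equals the log10 ratio of processed signals plus a level for each probe.

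Background was corrected by normexp (offset 50, all spots) in limma 3.58.1 with R 4.3.3. Control spots and the 3 flagged spots on each of both arrays were left out, and ratios were normalized by loess. A gene was called at a log2 size of at least 1. The offset draws changes of dim genes toward 0. Robust SDs were taken in 20 groups by Cy3 signal. The number of arrays limits the precision, and no p-value is given. Named genes are all called genes with a symbol, all measured members of the FGF and ERK, ERK feedback, pluripotency and Nodal lists, and the highest and lowest member of every other list, except a few that are not reported here. The members and lists were chosen with earlier results of these data known. Of 5619 symbols, 5145 matched RefSeq (GRCm38.p6), 1666 under another name. The steps were run on simulated arrays made from spots of the control array with noise of an assumed size. The simulation held no large Cy5 differences between arrays, so it does not measure the accuracy of the values given here. Alternatives were other backgrounds, normalizations, filters and thresholds. Counts used Python 3.11.15.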

Additional observations from a re-analysis of the deposited data

Results flagged for a closer look

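The arrays also carry probes that the processed table leaves out. Of these, 10510 had Cy3 well above background on both arrays, and 47 were at least 2-fold higher and 25 at least 2-fold lower with the FGFR inhibitor, or 0.685%. None of them carries a symbol here.

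The reference channel held the same RNA on both arrays. Among 15857 genes whose Cy3 and Cy5 signals were both well above background throughout, 66 nevertheless differed at least 2-fold in processed Cy5 signal, 43 higher and 23 lower on the FGFR inhibitor array, and Cy3 alone had the same direction for 64 of them. Of the 8 with a symbol, Gbx2 had the largest difference, -2.07, and 2310043M15Rik had 1.48. For Dusp27, Cy5 was 92.8 and 209, and Cy3 1974 and 5502. Msc, a bHLH factor, had a Cy5 difference of 1.35, with a log2 fold change of 0.30 in the ratio and 1.09 in Cy3 alone. Against the direction of Cy3, 1700025H01Rik had 1.40 in Cy5 and -0.10 in Cy3 alone. What moved the reference signal was not tested.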

How the results depend on the processing

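No paired analysis was possible because there is only 1 array of each kind, so none could be left out either. The 234 genes changed at least 2-fold became 724 with processed signals and 724 in the log10 table as deposited, 957 at 1.5-fold and 15 at 4-fold, the last 2 by construction. Other settings gave 197 (both channels well above background) to 318 (offset of 16). The share of higher calls, 57.3%, was 66.1% with median centring (144 higher, 74 lower) and 48.2% with processed signals (349 and 375), so the more frequent direction depended on the processing. Median centring put the median log2 fold change of all genes at 0.013. Of the list members measured, the 6 called became 12 at the lower offset, 20 in processed signals, 20 in the deposited log10 table, 27 at 1.5-fold and 2 at 4-fold, the last 2 by construction. For 123 genes named by rule or in the text, under 7 settings, 745 of 861 values stayed within 1 robust SD, 116 moved further, and no called gene among them changed direction. These settings reuse the same scans, and the deposited table repeats the ratio of processed signals. Such counts describe dependence on processing and do not measure reproducibility. Of all 234 called genes, 232 kept their direction in processed signals and 234 in Cy3 alone. Of the 25 named calls, 19 stayed past 2-fold in the processed signals, 21 with median centring, 21 in Cy3 alone, 23 with an offset of 16, 24 without background subtraction and 25 with Aquantile. Causes of these shifts were not tested. Dim genes are limited by signal over background.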
